A study of Mus musculus with 14 samples.

Results

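Il33 and 9 further genes of the interleukin-1 (IL-1) family of cytokines, receptors and inhibitors were followed across the 4 sample groups of a mouse array study of the Tsk2 allele of Col3a1. A gene belonged to the set if the platform annotation gave its symbol to a probe, and its value was the mean over its probes. Probes were listed for 9 of the 10 genes, 17 probes in all, out of 32664 probes and 19532 genes with 1 symbol on the array. Il1rl1, the receptor of IL-33, has no listed probe and is not analysed here. The family was chosen from the fibroblast comparison of these data, where Il33 was among the 7 genes lower with the Tsk2 allele past the threshold. The Tsk2 minus WT values in fibroblasts are therefore given for all members as a description, with no test.

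The groups were 3 samples of Col3a1 knockout fibroblasts transfected with Tsk2 Col3a1, 3 samples of the same knockout fibroblasts transfected with wild-type (WT) Col3a1, skin of 4 Tsk2 mice and skin of 4 WT mice. All mice were females of 4 weeks, and the series title writes the mutant genotype as Tsk2/+. Both fibroblast groups lack a working Col3a1 gene of their own, so the introduced allele is the one they can express. The labels give neither the promoter of the introduced gene nor whether the samples of a group were separate cultures, so p-values there cover only the spread seen between samples that may be technical repeats. Tsk2 is a mutation that gives tight, fibrotic skin, and the comparisons ask what the allele changes in cells and in skin.

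Each array compared 1 sample with a universal mouse reference RNA, and every value is a log2 ratio of the sample over that reference unless it is called a difference. A value of 0 therefore means a level equal to the reference, and levels of different genes cannot be set against each other on this scale. The number of arrays limits the precision, and no brightness over background was among the values used. Of the probes on an array, 33.8% to 46.7% held a value repeated 50 times or more on it, taken here as a sign of dim probes, which was not tested against brightness. Values of exactly 0 numbered 312 to 12391 per array, the highest number in WT skin replicate 2, which stands apart for that reason. Genes are called past the threshold at an adjusted p of at most 0.05 by limma, with Benjamini-Hochberg adjustment over all 19532 genes. Col3a1 itself read -2.32 to -2.20 in Tsk2 fibroblasts, -2.39 to -2.24 in WT fibroblasts, 2.17 to 2.58 in Tsk2 skin and 1.14 to 2.21 in WT skin, and where its probes lie relative to the introduced sequence is not known here. The skin carried its labelled character, with a keratinocyte marker mean of 4.16 to 5.34 in Tsk2 skin and 4.11 to 4.55 in WT skin. The same marker mean was 0.028 to 0.12 in Tsk2 fibroblasts and -0.054 to 0.22 in WT fibroblasts. The fibroblast marker mean was 1.37 to 1.55 in Tsk2 fibroblasts and 1.13 to 1.21 in WT fibroblasts, with Twist2 at 4.08 and 4.26 and Pdgfra at 0.035 and -0.013.

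IL-33, IL-1alpha and IL-1beta are cytokines that signal through pairs of receptor chains with a shared partner, the accessory protein encoded by Il1rap. IL-33 is stored in the nucleus of epithelial, endothelial and stromal cells, is released when they are damaged, and acts on mast cells, group 2 innate lymphoid cells and Th2 cells, which answer with type 2 cytokines. The family is held in check by the receptor antagonist encoded by Il1rn, the decoy receptor encoded by Il1r2 and the IL-18 binding protein encoded by Il18bp.

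The promoter windows of the 3 ligand genes that share a motif at one place are shown, read from RefSeq on the GRCm38.p6 build, each 5′ to 3′ on the gene's own strand with 250 bases before and 50 bases after the start site. Il33 has 2 start sites, with windows at chr19:29924863-29925162 and chr19:29945540-29945839 on the plus strand. Il1a lies at chr2:129309923-129310222 and Il1b at chr2:129371090-129371389, both on the minus strand. Capitals mark the letters TATAAA, the core of a TATA box.
Il33 first start site: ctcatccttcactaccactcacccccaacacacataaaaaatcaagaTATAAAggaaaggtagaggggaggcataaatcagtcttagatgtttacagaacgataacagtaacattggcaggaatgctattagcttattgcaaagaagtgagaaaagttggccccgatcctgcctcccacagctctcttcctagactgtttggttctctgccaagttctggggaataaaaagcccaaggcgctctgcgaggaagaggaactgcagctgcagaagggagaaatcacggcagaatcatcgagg
Il33 second start site: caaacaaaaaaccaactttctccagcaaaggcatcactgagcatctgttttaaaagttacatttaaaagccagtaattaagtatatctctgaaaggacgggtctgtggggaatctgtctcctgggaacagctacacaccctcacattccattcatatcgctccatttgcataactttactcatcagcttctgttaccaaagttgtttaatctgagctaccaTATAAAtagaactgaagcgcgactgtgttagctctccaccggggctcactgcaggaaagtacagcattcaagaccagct
Il1a: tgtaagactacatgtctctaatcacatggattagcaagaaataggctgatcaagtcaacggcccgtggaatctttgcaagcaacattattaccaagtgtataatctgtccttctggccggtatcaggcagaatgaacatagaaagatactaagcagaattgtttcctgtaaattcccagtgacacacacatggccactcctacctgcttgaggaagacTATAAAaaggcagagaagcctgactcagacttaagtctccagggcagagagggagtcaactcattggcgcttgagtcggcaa
Il1b: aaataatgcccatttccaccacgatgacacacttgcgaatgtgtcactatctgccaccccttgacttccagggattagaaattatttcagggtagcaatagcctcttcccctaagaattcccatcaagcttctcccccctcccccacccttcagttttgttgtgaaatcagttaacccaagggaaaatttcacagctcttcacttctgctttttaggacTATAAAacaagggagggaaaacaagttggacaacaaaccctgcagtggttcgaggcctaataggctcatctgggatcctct

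The letters TATAAA begin 29 bases before the second start site of Il33, 32 bases before that of Il1a and 31 bases before that of Il1b. Of 32851 promoters of this length, 13.6% hold TATAAA on either strand, and 1.75% hold it on the plus strand 25 to 35 bases before the start. The first Il33 window holds it 203 bases before the start. All 10 genes had a RefSeq window, 15 windows in all, and 6 of the 15 hold TATAAA. The core of the interferon-stimulated response element, searched on either strand as GAAA, any 2 bases and GAAA, is in neither Il33 window and in 1 of the 15, that of Il1rap, as GAAAAAGAAA. It is in 3.44% of all promoters, and Cxcl10 holds it as GAAAGTGAAA 213 bases before its start. The NF-kappaB letters, searched on either strand as GGG, any 2 bases and TTTCC, are in overlapping windows of Il1rn as GGGTTTTTCC and in 1.63% of all promoters. These are matches of letters only, which say nothing of the factors, and the start site that the Il33 probe reports on is not known here.

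Among the ligands, Il33 was lower in fibroblasts with the Tsk2 allele and higher in Tsk2 skin, each against its own WT group. Its 1 probe read -2.11, -2.10 and -1.88 in the Tsk2 fibroblasts, and -0.20, 0.24 and 0.39 in the WT fibroblasts. All 3 Tsk2 samples lay below all 3 WT samples, with the Tsk2 samples close together. The means were -2.03 ± 0.13 with the Tsk2 allele and 0.14 ± 0.31 with the WT allele (SD, n = 3 each), a difference of -2.17 ± 0.18 (SE) or 4.50-fold. That is the difference the family was chosen by, and it is given with no test.

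In skin the same probe read -0.30, 0.47, -0.68 and -0.30 in the 4 Tsk2 mice, and -1.63, -1.06, -1.47 and -1.07 in the 4 WT mice. All Tsk2 mice lay above all WT mice, and Tsk2 replicate 2 was the highest. The means were -0.20 ± 0.48 in Tsk2 skin and -1.31 ± 0.29 in WT skin (SD, n = 4 each). The difference was 1.11 ± 0.26 (SE; 95% confidence interval 0.51 to 1.70), or 2.15-fold. Over all genes it missed the threshold (adjusted p = 0.0601 by limma). The exact permutation test of this 1 value, two-sided over 70 arrangements, gave p = 0.0286, the smallest that 4 mice against 4 allow. That p follows from the lack of overlap and adds nothing to it, and 16.1% of all genes did not overlap in skin. Without WT skin replicate 2 the difference was 1.19 (adjusted p = 0.0894 by limma), and without Tsk2 replicate 2 it was 0.88 (0.123). The difference also missed the threshold with quantile normalization (0.0580), exact zeros as missing (0.0552) and the most variable probe (0.0740). Leaving out Tsk2 replicate 1, 3 or 4 or WT replicate 1 or 3 gave an adjusted p of 0.0882 to 0.157 by limma. It passed the threshold without WT replicate 4, at 1.19 (0.0447), with array weights, at 1.13 (0.0367), and with probes at repeated values left out (0.0443). It also passed in 1 fit of all 14 arrays (0.00939). That fit takes its spread from the fibroblast arrays too, which chose the gene, so its p is not independent of the choice. In bulk skin, more cells of a type and more RNA per cell cannot be told apart.

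**Figure D1:**
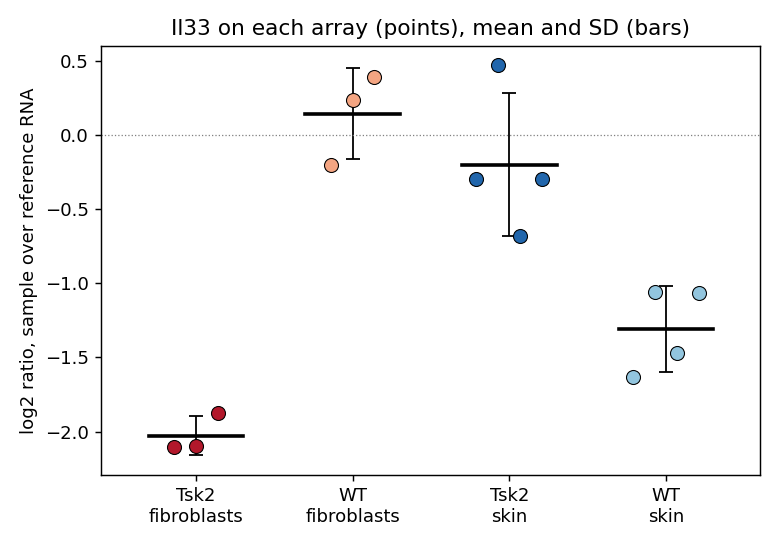
Il33 log2 ratio of the sample over the reference RNA (vertical axis) in each of the 4 groups; points are arrays, the wide line is the mean and the bars are the SD. The 3 Tsk2 fibroblast samples lie between -2.11 and -1.88, below the WT fibroblasts, while the 4 Tsk2 skin samples lie between -0.68 and 0.47, above the WT skin samples.

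By level, and with RNA of skin and fibroblasts extracted with different kits, Il33 was highest in WT fibroblasts, then Tsk2 skin, then WT skin, and lowest in Tsk2 fibroblasts. WT fibroblasts and Tsk2 skin overlapped, from -0.20 to 0.39 and from -0.68 to 0.47, so their order does not hold beyond the spread. The other neighbours in that order did not overlap. WT skin lay 1.45 below WT fibroblasts (difference -1.45), a value that shares the WT fibroblasts with the contrast that picked the gene and is not tested. No Il33 value was exactly 0 or repeated. Genes without overlap in both systems that were higher in Tsk2 skin and lower in Tsk2 fibroblasts numbered 163 of 19532 (0.835%). The difference between the 2 Il33 effects was not tested, since one of them chose the gene.

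Il1a and Il1b, the ligands of the IL-1 receptor, showed no such pattern. Il1a read 5.98, 4.62 and 4.18 in Tsk2 fibroblasts and 4.38, 4.50 and 4.60 in WT fibroblasts, far above the reference on every array. The high value of Tsk2 replicate 1 came from 1 probe at 6.88, where the other probe read 5.07. In skin Il1a averaged 1.12 ± 0.30 in Tsk2 mice and 0.65 ± 0.55 in WT mice (SD, n = 4 each; adjusted p = 0.364 by limma). There 68.75% of its probe values were repeated values, and both probes were exactly 0 in WT skin replicate 2. Il1b read 0.34, -0.09 and 0.25 in Tsk2 fibroblasts and 0.48, 0.56 and 0.68 in WT fibroblasts, without overlap, a difference of -0.41. In skin it read 0.86, 0.97, 0.66 and -0.40 in Tsk2 mice and 0.50, 0.78, 0.77 and 0.23 in WT mice. Those skin groups overlapped widely, and the skin difference was -0.05 (95% confidence interval -0.75 to 0.65; adjusted p = 0.944 by limma).

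Il18, a ligand that keratinocytes hold as an inactive precursor, lay above the reference in skin and below it in fibroblasts. It read 2.01, 2.52, 1.88 and 2.38 in Tsk2 skin and 1.76, 1.95, 1.67 and 1.73 in WT skin, where the lowest Tsk2 mouse overlapped the highest WT mouse. The difference was 0.42 ± 0.18 (SE; adjusted p = 0.207 by limma), with an exact permutation p of 0.0571, two-sided. In fibroblasts it averaged -0.73 ± 0.25 with the Tsk2 allele and -0.46 ± 0.076 with the WT allele (SD, n = 3 each).

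Among the receptors and decoys, Il1r2 was past the threshold in skin and its call rests on how its probes are joined. Il1r2 encodes a receptor that binds IL-1 without signalling. Its gene value was 4.65, 5.30, 4.35 and 4.64 in Tsk2 skin and 3.90, 3.37, 3.52 and 3.83 in WT skin, without overlap. The means were 4.73 ± 0.40 in Tsk2 skin and 3.66 ± 0.25 in WT skin (SD, n = 4 each), and the difference was 1.08 ± 0.23 (SE; adjusted p = 0.0486 by limma), or 2.11-fold. The probes differed in WT skin replicate 2, where one read 6.73, above every other mouse, and the other was exactly 0. In the other mice the first probe read 5.03 to 5.90 in Tsk2 skin and 4.02 to 4.69 in WT skin, and the second read 3.49 to 4.69 in Tsk2 skin and 3.03 to 3.46 in WT skin. Neither probe passed on its own, at differences of 0.39 (adjusted p = 0.722 by limma) and 1.76 (0.199). With exact zeros taken as missing the difference was 0.23 (0.851). Without WT skin replicate 2 it was 0.98 (0.0934), and leaving out any other mouse except WT replicate 4 also ended the call (0.0751 to 0.134). The difference itself was 0.89 to 1.20 with single mice left out, and except without Tsk2 replicate 1 or WT replicate 4 no gene on the array passed in these fits. In fibroblasts Il1r2 read 2.23, 2.94 and 2.86 with the Tsk2 allele and 2.40, 2.19 and 2.64 with the WT allele. Those groups overlapped, at a difference of 0.27. One probe was exactly 0 in Tsk2 fibroblast replicate 1 where the other read 4.46, and with exact zeros as missing the difference was 1.01. In skin and in fibroblasts, that setting leaves the array with the 0 on the other probe alone, which reads higher in general. The remaining arrays keep the mean of both. The probe without zeros differed by 0.27 in fibroblasts.

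Il1r1, the signalling receptor of IL-1, was above WT without overlap in both Tsk2 groups, a pattern held by 277 of 19532 genes (1.42%). In skin Il1r1 missed the threshold, and in fibroblasts it is given with no test. It read 0.84, 0.93, 0.88 and 0.88 in Tsk2 skin and 0.71, 0.57, 0.68 and 0.52 in WT skin, without overlap. The difference was 0.26 ± 0.13 (SE; adjusted p = 0.251 by limma), and the exact permutation p was 0.0286, two-sided, which follows from the lack of overlap. In fibroblasts it read 0.77, 0.90 and 0.81 with the Tsk2 allele and 0.67, 0.55 and 0.50 with the WT allele, a difference of 0.26 ± 0.094 (SE) without overlap. Both differences are about 1.2-fold, and 33.3% of its fibroblast values were repeated values.

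Il1rap, the shared accessory chain, differed little in fibroblasts, with means of 2.63 ± 0.12 with the Tsk2 allele and 2.61 ± 0.11 with the WT allele (SD, n = 3 each). Its fibroblast difference was -0.12 after quantile normalization and 0.25 with the most variable probe. In skin its 5 probes averaged 0.36 ± 0.25 in Tsk2 mice and 0.037 ± 0.25 in WT mice (SD, n = 4 each; adjusted p = 0.350 by limma). There 62.5% of its probe values were repeated, and the probes disagreed. One of them read 1.07, 1.50, 1.30 and 1.51 in Tsk2 skin and 0.60, -0.058, 0.58 and 1.03 in WT skin, without overlap, at a difference of 0.81 (adjusted p = 0.111). The other 4 differed by -0.12 to 0.47.

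The means of the antagonist and of the binding protein lay below those of WT in Tsk2 skin, with neither past the threshold. Il1rn read 0.99, 1.31, 0.44 and 1.35 in Tsk2 skin and 1.77, 1.03, 2.16 and 0.89 in WT skin, with overlap and a difference of -0.43 ± 0.33 (SE; adjusted p = 0.466 by limma). In skin 37.5% of the Il1rn probe values were repeated values. Its 2 probes differed in level, at 0.64 and 2.28 in WT skin, with Tsk2 minus WT differences of -0.42 and -0.45. In fibroblasts Il1rn averaged -0.46 ± 0.13 with the Tsk2 allele and -0.57 ± 0.66 with the WT allele (SD, n = 3 each). Il18bp, known as an interferon-induced inhibitor of IL-18, read 0.93, 0.67 and 0.56 in Tsk2 fibroblasts and 1.0, 1.08 and 1.13 in WT fibroblasts, without overlap, a difference of -0.35 ± 0.12 (SE). In skin Il18bp averaged -0.0065 ± 0.21 in Tsk2 mice and 0.17 ± 0.32 in WT mice (SD, n = 4 each; adjusted p = 0.637 by limma).

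**Figure D2:**
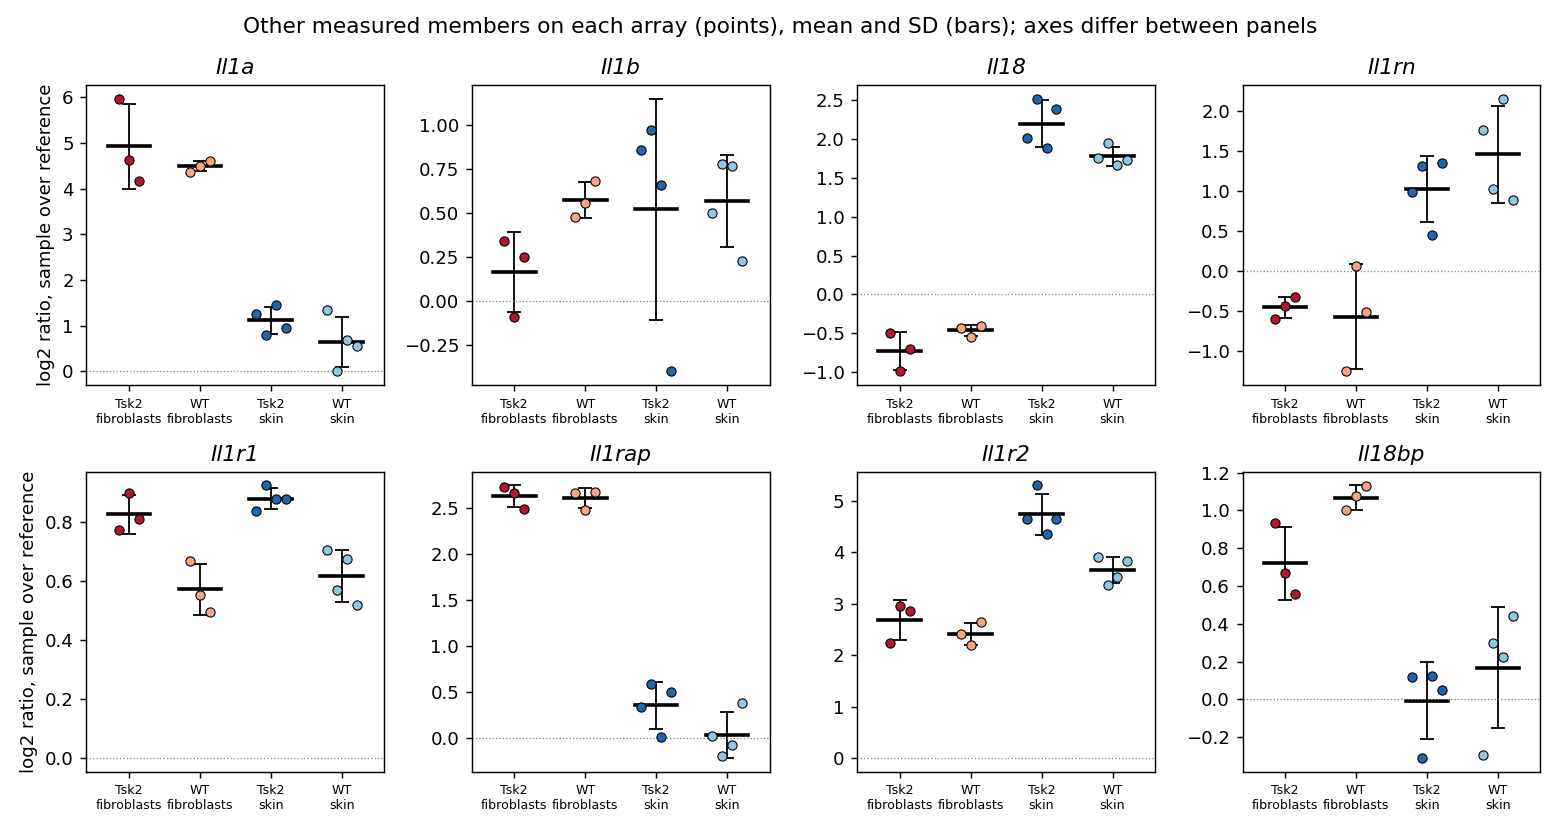
The other 8 measured members, as log2 ratio of the sample over the reference (vertical axes, different in each panel) in the 4 groups; points are arrays, wide lines means and bars SD. Il1r2 and Il1r1 lie higher in Tsk2 skin without overlap, and Il1a and Il1rap lie far higher in both fibroblast groups than in skin.

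Counted together, 1 of the 9 measured members passed the threshold in skin, and it was higher. Of all genes 2.91% passed, 1.91% higher and 0.998% lower. The Tsk2 and WT mice did not overlap for 3 members, Il33, Il1r1 and Il1r2, all higher, where 16.1% of all genes did not overlap, 9.33% higher and 6.75% lower. The median difference of the 9 was 0.32 against 0.030 over all genes, with 6 above 0. In fibroblasts 4 members did not overlap, Il1r1 higher and Il33, Il1b and Il18bp lower. Il33 was picked by this contrast, so its lack of overlap followed from that choice. Only Il1r1, Il1b and Il18bp can be set beside the share of all genes. Of all genes 20.0% did not overlap there, 9.82% higher and 10.2% lower, and 0.0512% passed the threshold. The median fibroblast difference of the 9 was 0.020, against -0.00033 over all genes.

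**Figure D3:**
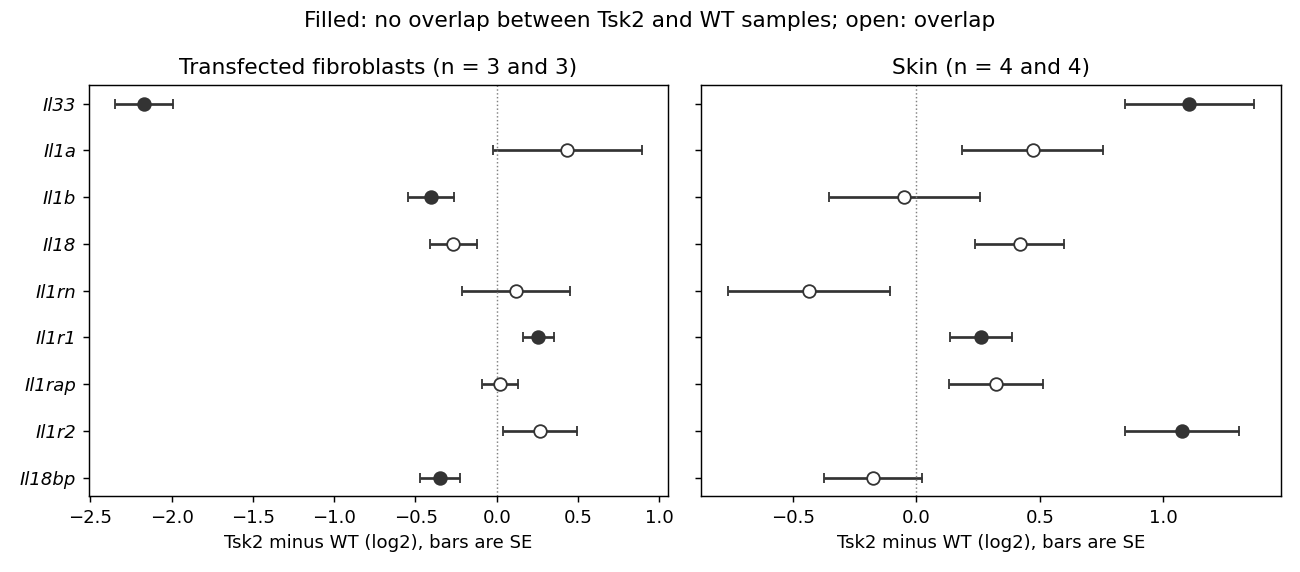
Tsk2 minus WT difference of each measured member (horizontal axes, log2, with SE bars; the scales of the panels differ) in fibroblasts and in skin; filled points mark members whose Tsk2 and WT samples do not overlap. Il33 lies at -2.17 in fibroblasts and at 1.11 in skin.

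The remaining ligands of the family pointed in several directions in Tsk2 skin. Of 5 listed genes 4 were measured, 3 of them under older names, and 0 passed the threshold by limma, with a median difference of 0.086. Il1f9, which encodes IL-36gamma, a cytokine of stressed epidermis, read 2.81, 2.76, 2.13 and 3.03 in Tsk2 skin and 1.98, 0, 0.38 and 2.13 in WT skin. The groups did not overlap, though the highest WT mouse came within 0.01 of the lowest Tsk2 mouse, and the value of 0 was in WT skin replicate 2. The difference was 1.56 ± 0.49 (SE; adjusted p = 0.112 by limma), and it passed without WT replicate 4, at 1.90 (0.0467), and in 1 fit of all arrays (0.0316). Il1f10, encoding IL-38, averaged 2.36 ± 0.60 in Tsk2 skin and 4.96 ± 2.14 in WT skin (SD, n = 4 each; adjusted p = 0.143). The further receptors had 0 of 6 past the threshold by limma, with Il1rl2, the IL-36 receptor, at a difference of 0.20 (0.663) and Il18r1, the IL-18 receptor chain, at 0.32 (0.668).

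Of 13 measured type 2 response genes, which IL-33 is known to act on through its target cells, 2 passed the threshold in Tsk2 skin. They were Ccl17 and Ccl24, both higher, against 1.91% of all genes past it and higher. Of the 13, 8 had a mean above WT and 5 below. Ccl17, a chemokine that draws Th2 cells, read -0.65, -0.18, -0.072 and -0.28 in Tsk2 skin and -1.69, -3.16, -2.60 and -2.15 in WT skin. All Tsk2 mice lay above all WT mice, at a difference of 2.11 ± 0.31 (SE; adjusted p = 0.0243 by limma), or 4.30-fold. Ccl24, the eosinophil chemokine eotaxin-2, read -1.08, -0.80, -1.42 and -0.72 in Tsk2 skin and -2.09, -2.45, -2.26 and -1.97 in WT skin. It rose by 1.19 ± 0.20 (SE; adjusted p = 0.0288), or 2.28-fold, without overlap. The epithelial cytokine Tslp differed by 0.77 ± 0.34 (SE; adjusted p = 0.220). Of the type 2 cytokines, Il4 differed by 0.41 (0.161), without overlap, and Il13 by -0.088 (0.833), Il5 by -0.090 (0.843) and Il9 by -0.82 (0.388), with 62.5% to 100% of the values of these last 3 at repeated values. Arg1, an enzyme of alternatively activated macrophages, averaged 2.79 ± 0.44 in Tsk2 skin and 4.02 ± 1.06 in WT skin (SD, n = 4 each; 0.180). The median difference of the list was 0.28. The count was 0 by limma without Tsk2 replicates 2, 3 or 4 or WT replicates 1, 2 or 3, where 2 to 4 members had an unadjusted p of at most 0.05, and 3 without WT replicate 4. Over the fits with single mice left out Ccl17 differed by 1.85 to 2.34 and Ccl24 by 1.09 to 1.33, and no gene on the array passed in those with a count of 0.

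**Figure D4:**
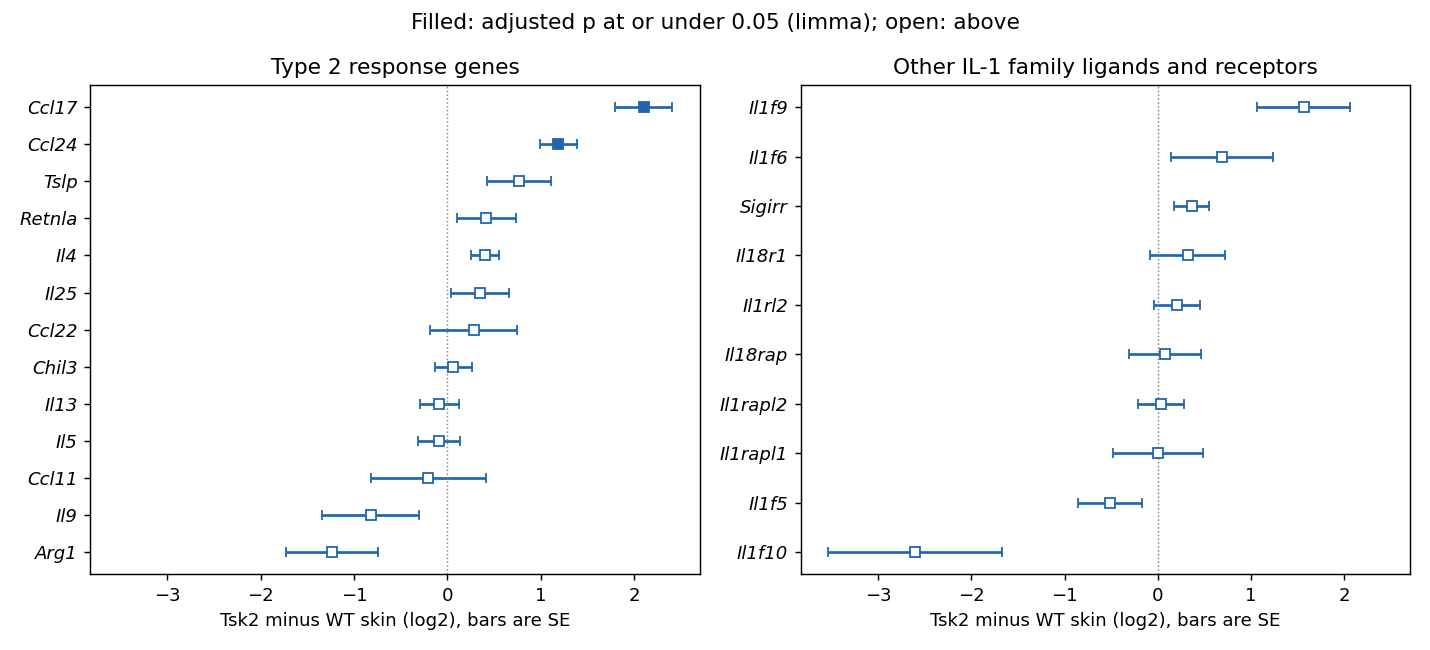
Tsk2 minus WT skin difference (horizontal axes, log2, with SE bars) of the type 2 response genes and of the other ligands and receptors of the IL-1 family; filled squares mark an adjusted p of at most 0.05 by limma. Ccl17 at 2.11 and Ccl24 at 1.19 are the filled squares, and Il1f9 at 1.56 and Il1f10 at -2.60 are the outermost of the open ones.

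Downstream of the receptors, none of the listed genes of signalling, processing and response to IL-1 passed the threshold singly in Tsk2 skin, and the lists were not tested as groups. The counts by limma were 0 of 22 IL-1 response genes (median difference 0.21), 0 of 15 signalling genes (0.091) and 0 of 10 inflammasome genes (0.064). Of all genes 2.91% passed the same threshold, so counts of 0 in lists of this size lie near the background. At an unadjusted p of at most 0.05 all genes numbered 4503. Nfkbia, which encodes the NF-kappaB inhibitor that the pathway induces, read -0.17, 0.54, 0.24 and 0.89 in Tsk2 skin and -0.54, -0.63, -0.51 and 0.022 in WT skin. Its groups overlapped, at a difference of 0.79 ± 0.25 (SE; adjusted p = 0.115). Among the target cytokines Il6 differed by 0.72 (0.318), Cxcl1 by -0.41 (0.483) and Ccl2 by -0.23 (0.614). The adaptor Myd88 differed by 0.19 (0.404), without overlap, and the IL-1beta and IL-18 processing protease Casp1 by -0.18 (0.526).

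In fibroblasts the same lists held 0 genes past the threshold by limma, where 10 of all genes (0.0512%) passed it and 2186 had an unadjusted p of at most 0.05, so these counts of 0 also lie near the background. The median differences were -0.05 for IL-1 response genes, -0.043 for signalling genes and -0.20 for inflammasome genes. Il6 averaged 3.61 ± 0.13 with the Tsk2 allele and 3.46 ± 0.061 with the WT allele, and Cxcl1 2.41 ± 0.091 and 2.29 ± 0.16 (SD, n = 3 each). Tslp averaged -2.92 ± 0.65 with the Tsk2 allele and -2.21 ± 0.096 with the WT allele, without overlap (adjusted p = 0.475 by limma). Interferon response genes had 24 of 25 measured members below WT, with a median difference of -0.48. Past the threshold as lower were 3 of the 25, Cxcl10, Rsad2 and Oasl1, against 0.0358% of all genes. The same contrast chose the family, and these genes were named after their values were seen, so this count is only a description. The 3 calls ended, with 0 of all genes past the threshold, under the replicate block and once the WT arrays 3A and 3B were averaged. They also ended when Tsk2 replicate 1 was left out, or either of 3A and 3B. With exact zeros as missing, or without Tsk2 replicate 2, 1 of all genes passed, so at most 1 of the 3 calls could hold there. Oasl1 and Gbp3 of this list were also among the 5 genes most like Il33 on these arrays. In skin the interferon list had 0 of 25 past the threshold and a median difference of 0.039.

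Pearson correlation with Il33 was ranked among 4559 genes with no repeated or zero value on any array, clone and locus names left out. The genes with the highest correlation over the 6 fibroblast arrays were Ccl5 (r = 0.999), Psmb10 (0.998), Acod1 (0.995), Gbp3 (0.995) and Oasl1 (0.994). All 5 were lower with the Tsk2 allele, Acod1 by the widest margin at -3.85 against -0.74. Over the 8 skin arrays they were Gsta1 (r = 0.984), Cyp26b1 (0.981), Cyp3a13 (0.980), Egfl7 (0.979) and Nceh1 (0.976), all with a higher mean in Tsk2 skin, by 0.55 to 0.95. The arrays compared share the genotype difference and the reference RNA, so these likenesses are descriptions. No gene was in both sets of 5.

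Markers of some other cells also differed between Tsk2 and WT skin, and their part in the Il33 difference was not tested. The mean of 10 mast cell markers was 2.31 to 2.47 in Tsk2 skin and 1.71 to 2.02 in WT skin. Of the 10, 8 had a mean above WT and 2 below, and 2 passed the threshold as higher, Hdc and Gata2, against 1.91% of all genes. Gata2 is not particular to mast cells here, since it read 0.14 to 0.31 in WT fibroblasts and -1.63 to -1.04 in WT skin. The values of Ms4a2 and Tpsab1 were all repeated values. Fibroblast markers had means of 2.09 to 2.26 in Tsk2 skin and 0.998 to 1.84 in WT skin. Of the 11, 10 had a mean above WT, and 2 passed the threshold as higher, Lum and Pdgfrb. Endothelial markers had means of 2.39 to 2.74 in Tsk2 skin and 1.91 to 2.15 in WT skin, with 0 of 10 past the threshold by limma. Dendritic and Langerhans cell markers had means of 1.43 to 1.79 in Tsk2 skin and 0.96 to 1.24 in WT skin. All 8 had a mean above WT, and 1 passed the threshold, Itgax. Hair follicle markers had means of 0.36 to 3.59 in Tsk2 skin and 4.28 to 5.72 in WT skin. All 18 had a mean below WT, and 9 passed the threshold as lower, against 0.998% of all genes. Keratinocyte marker means overlapped between the genotypes, and 0 of 12 passed. Macrophage, T cell, regulatory T cell, ILC2 and Th2 cell, neutrophil, eosinophil and adipocyte markers had 0 members past the threshold by limma, and all 5 eosinophil genes were mostly at repeated values. No gene on the array passed without Tsk2 replicates 2, 3 or 4 or WT replicates 1, 2 or 3, so these marker calls end there. The named marker genes were chosen after their values were seen.

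WT skin was set against WT fibroblasts to describe the levels of the family without the Tsk2 allele. The fibroblasts were cultured Col3a1 knockout cells transfected with WT Col3a1, and their RNA was extracted with another kit. Tissue, culture, knockout, transfection and kit cannot be told apart in this comparison. Apart from Il33, 6 members passed the threshold, 3 higher and 3 lower in skin, where 40.6% of all genes passed, 22.0% higher and 18.6% lower. WT skin and WT fibroblasts did not overlap for 48.9% of all genes, 25.7% higher and 23.2% lower in skin. Higher in WT skin were Il18 by 2.24 (adjusted p = 1.75e-05 by limma), Il1rn by 2.04 (0.00609) and Il1r2 by 1.24 (0.00149). One Il1rn probe averaged 0.64 in WT skin and -0.13 in WT fibroblasts, and the other 2.28 and -1.02, so the size of this difference is uncertain. The Il1r2 difference was -0.19 after quantile normalization, and the most variable probe gave 0.95 (0.399). With exact zeros as missing, which leaves WT skin replicate 2 on 1 probe, the Il1r2 difference was 2.09 (0.0581). The Il1r2 call therefore rests on the processing. Lower in WT skin were Il1a, at 0.65 ± 0.55 in skin and 4.49 ± 0.11 in fibroblasts, Il1rap, at 0.037 ± 0.25 in skin and 2.61 ± 0.11 in fibroblasts, and Il18bp, which fell by 0.90 (SD, n = 4 and 3; adjusted p = 6.48e-05, 3.23e-05 and 0.00780). In WT skin 6 of the 8 Il1a probe values and 13 of the 20 Il1rap probe values were repeated values, 2 and 4 of them exactly 0, so the sizes of these differences are uncertain. Il1b differed by -0.0033 (0.991) and Il1r1 by 0.045 (0.798), neither past the threshold.

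The wider lists are given by their counts in the same comparison, and were not tested as lists. In these counts, higher and lower mean past the threshold. Of 22 IL-1 response genes 20 were lower in WT skin, where 18.6% of all genes were lower past the threshold, with a median difference of -3.88. Of 25 interferon response genes 24 were lower in WT skin, with a median difference of -3.17. The prostaglandin synthase gene Ptgs2 averaged -4.61 ± 0.63 in WT skin and 4.41 ± 0.054 in WT fibroblasts, and the chemokine Cxcl1 -6.31 ± 0.63 in WT skin and 2.29 ± 0.16 in WT fibroblasts (SD, n = 4 and 3; adjusted p = 3.99e-06 and 5.17e-06 by limma). Csf2, encoding a myeloid growth factor, fell by 5.12 and the adhesion molecule Vcam1 by 4.49. Of 10 inflammasome genes 4 were higher in WT skin, among them the adaptor Pycard by 3.01 and Casp1 by 1.66. A further 2 were lower, the inflammatory caspase Casp4 by 4.38 (difference -4.38) and the pore-forming Gsdmd by 2.37 (difference -2.37). Il1f5, encoding the IL-36 receptor antagonist, and Il1f10 were higher in WT skin by 4.73 and 4.89. Of 13 type 2 response genes 4 were higher in WT skin, Retnla by 4.65, Arg1 by 4.12, Ccl24 by 2.42 and Chil3 by 0.95. Of the values of Retnla, Arg1 and Il1f10 over these 7 arrays 42.9% were repeated values, and of Il1f5 57.1%, so the sizes of these 4 differences are uncertain. Of the 15 signalling genes 2 were higher and 5 lower, with Tab1 at 1.58 and the kinase Irak2 at -2.74 as examples. The counts of the type 2 and signalling lists lie near the 22.0% higher and 18.6% lower of all genes, and nothing is read from them.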

How the data were processed

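Total RNA of each sample, labelled with Cy5, was compared with a Cy3-labelled universal mouse reference on 2-colour Agilent arrays, per the labels. The deposited values are log ratios made by the authors, taken here as log2 of sample over reference: the base is not stated, and the direction follows the dyes. Background correction, normalization within arrays, filters and the genome build of the probes were not stated in any source read here. Column medians lay between 0 and 0.043, so arrays appear centred.

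Of 41174 probes, the platform annotation gave 1 symbol to 32664 and several to 45, and did not list 8465. A gene's value was the mean of its probes. List genes were matched by symbol or RefSeq synonym, which placed Il1f5, Il1f6 and Il1f9; genes without a match are not analysed here. Groups follow the labels, which hold 4 mice per genotype although the design text counts 3. Each comparison was fitted on its own arrays in R 4.3.3 by limma 3.58.1 (functions lmFit and eBayes, two-sided, Benjamini-Hochberg over 19532 genes), for genes valued on at least 2 arrays per transfection and 3 per genotype of skin, and the fit was tested on simulated data. Scanner files were not used here, so batches were not tested.

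Named were the 10 members, up to 4 list genes past the threshold by lowest p except interferon genes, 10 pathway genes whatever their values, and 5 genes most like Il33 in each system. Il4, Il5, Il9, Il13, Arg1, Il1f10 in Tsk2 skin, the interferon genes and the cell markers were added after their values were seen. The members, lists and alternatives were chosen with earlier results of these data known. Alternatives were quantile normalization, exact zeros as missing, probes at repeated values left out, the most variable probe per gene, array weights, 1 fit of all 14 arrays, each replicate left out, a replicate block, and WT fibroblast replicates 3A and 3B as 1 sample.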

Additional observations from a re-analysis of the deposited data

Results flagged for a closer look

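Il33 differed in opposite directions in the systems: every Tsk2 skin sample lay above every WT skin sample (difference 1.11), and every Tsk2 fibroblast sample lay below every WT fibroblast sample (difference -2.17). The difference between the effects was not tested.

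Il18bp in Tsk2 skin replicate 2 stood apart from its group, at -0.31 where the other 3 mice read 0.048 to 0.12. Chance sets apart about 1 in 20 groups by this measure.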

How the results depend on the processing

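In skin, 568 genes passed the threshold. The count was 1123 with probes at repeated values left out, 1341 with array weights and 2814 in 1 fit of all 14 arrays, and 0 to 1827 with single replicates left out. It was 0 by limma without Tsk2 replicates 2, 3 or 4 or WT replicates 1, 2 or 3 (3473 to 4145 genes at an unadjusted p of at most 0.05) and 1827 without WT replicate 4. Members past the threshold in skin were 0 with quantile normalization, exact zeros as missing or the most variable probe. They were 2 with probes at repeated values left out, array weights or 1 fit, and 0 to 2 with single replicates left out. The 1 fit draws on the fibroblast arrays that chose Il33. Type 2 response genes past it were 0 to 3 with single replicates left out. Il33 in skin was 1.11 with probes at repeated values left out and in 1 fit, 1.13 with array weights and 0.88 to 1.27 with single replicates left out. Il1b in skin was -0.20 to 0.26 with single replicates left out, and above 0 without Tsk2 replicate 4, WT replicate 2 or WT replicate 3. Il1rl2 in skin was -0.20 with exact zeros as missing.

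In fibroblasts, 10 genes passed; the count was 3 with quantile normalization, 1 with exact zeros as missing, 16 with probes at repeated values left out or array weights, 5 with the most variable probe, and 0 to 3 with single replicates left out. It was 0 by limma with a replicate block (1812 genes at an unadjusted p of at most 0.05) and with replicates 3A and 3B as 1 sample (1478). Whether the numbers pair the samples could not be judged. The Il33 difference was -2.34 to -2.05 with single replicates left out. Small fibroblast differences changed sign: Cxcl1 was -0.0038 and Ccl2 -0.13 after quantile normalization, and Ccl2 was -0.0057 with the replicate block. Il1rl2 was 0.020 with array weights, 0.026 with the replicate block and 0.0052 with 3A and 3B as 1 sample. Il1f9 was -0.14 with exact zeros as missing, -0.032 with array weights and -0.0086 with the replicate block. With single replicates left out, Ccl2 was -0.11 to 0.13, Il1rl2 -0.17 to 0.13, Il1f9 -0.23 to 0.23 and Casp1 -0.13 to 0.055.

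Between WT skin and WT fibroblasts, Il1b was -0.073 to 0.11 with single replicates left out, and quantile normalization gave -0.033 for Il1r1 and -0.19 for Il1r2. The cause of these changes was not tested. The number of arrays and the repeated values limit the precision, and brightness over background was not used.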
